A study of Mus musculus with 11 samples.

Results

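Ptpn14, the gene of a non-receptor tyrosine phosphatase, was examined together with 8 genes of the Hippo pathway (Yap1, Wwtr1, Tead1, Tead2, Lats1, Lats2, Amotl2 and Wwc1) in the hippocampus of mice whose mothers differed in folic acid (FA) intake before conception. The 9 genes were found by their GENCODE symbols among 38293 genes of the count tables, of which 36345 had a symbol. RNA of whole hippocampus was sequenced from 11 wildtype F1 mice at 14 weeks of age, all from 129S6/SvEv mothers and C57BL/6J fathers. The 6 CD F1 mice (3 males, 3 females) descended from dams that ate 2.3 mg FA per kg diet, and the 5 FD F1 mice (2 males, 3 females) from dams that ate 40 mg FA per kg diet for 6 weeks before mating. The high dose ended at mating, after which every animal received the diet with 2.3 mg FA per kg, so the high dose was not fed during gestation or later. The study also measured candidate genes by qPCR and reported higher Ptpn14 in FD hippocampi. Ptpn14 had been chosen for qPCR from these same libraries, on a p-value threshold for FD against CD and a minimum mean expression. Its own difference between the diets is therefore given as a description without a test. The other genes were selected on their pathway membership with earlier results of these data known.

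The Hippo pathway is a kinase cascade that restrains tissue growth. Upstream proteins at cell junctions, such as the scaffold KIBRA (the product of Wwc1), promote the activity of the MST and LATS kinases, and the LATS kinases phosphorylate the coactivators YAP (Yap1) and TAZ (Wwtr1). Phosphorylated YAP and TAZ stay in the cytoplasm, whereas the unphosphorylated proteins enter the nucleus and drive transcription together with DNA-binding TEAD factors. PTPN14 and the angiomotins, which include the product of Amotl2, bind YAP and hold it in the cytoplasm, and Amotl2, Lats2 and Ptpn14 are themselves known as YAP target genes. In the brain, YAP and TAZ are known mainly from neural progenitors, astrocytes and vessel cells rather than from mature neurons. In RNA of a whole tissue, fewer cells of one type and less RNA per cell cannot be told apart.

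Total counts on genes lay between 11737554 and 44447006 per mouse, and expression is given as CPM, the counts divided by the TMM-scaled library size and brought to a common total. The markers of hippocampal neurons were present, with 7 of 7 dentate granule cell, 6 of 6 CA1 and 6 of 6 CA3 markers counted in every mouse. The libraries of 3 females (CD female 1, CD female 3 and FD female 3) stood apart. Reads that aligned to several places made up 15.1% to 16.0% of their reads against 13.7% to 14.5% in the other 8. They lay at one end of the first principal component of the genes averaging 1 CPM or more, at 0.35 to 0.45 against at most 0.16. Ptpn14, Yap1, Lats1 and Tead1 were all low in these libraries, and values for the other 8 mice are therefore given beside the results. These 8 still differed along the component, and FD male 2 lay at its other end, at -0.45. Over 11 and 8 mice Pearson's r with the component was -0.79 and -0.48 for Ptpn14, and -0.70 and -0.42 for Wwtr1.

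Per kilobase of exonic sequence, Wwc1 and the LATS kinase genes were more abundant than the coactivator and TEAD genes. Wwc1 had the highest level of the 9, at 19.0 ± 0.888 CPM per kb (SD, n = 11), followed by Lats2 at 9.15 ± 0.503 and Lats1 at 7.39 ± 0.874. The ranges of the LATS genes touched, since the lowest Lats2 value was 8.04 and the highest Lats1 value was 8.31 CPM per kb. Wwtr1 came next at 4.02 ± 0.484 CPM per kb and did not overlap with its neighbours in the order. Amotl2 at 2.47 ± 0.310 and Yap1 at 2.42 ± 0.151 CPM per kb did not differ beyond their spread. Every Wwtr1 value lay above every Yap1 value on this scale. Tead1 at 1.49 ± 0.295 and Ptpn14 at 1.48 ± 0.250 CPM per kb also lay within each other's spread. Tead2, which encodes the TEAD factor best known from embryonic neural tissue, was lowest at 0.433 ± 0.0660 CPM per kb, with between 17 and 89 counts per mouse, and its values are the least precise.

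**Figure D1:**
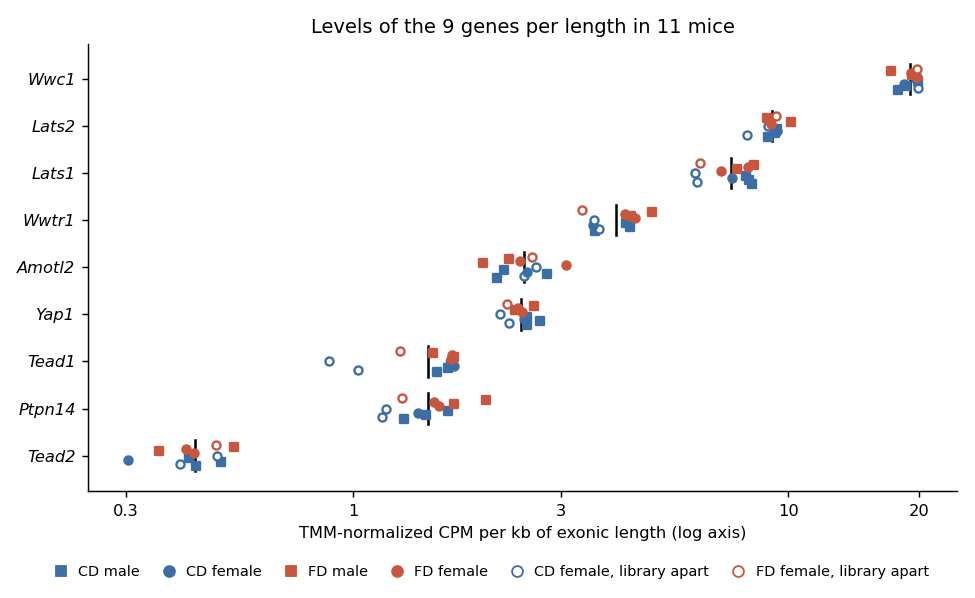
TMM-normalized CPM per kilobase of exonic length (log axis) of the 9 genes in 11 mice; squares are males, circles females, open circles the 3 libraries that stood apart, and vertical bars the mean of 11 mice. Wwc1, Lats2 and Lats1 lie above 6 CPM per kb in every mouse, and Tead2 lies below 0.54.

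The mean Ptpn14 level was higher on the FD side, with overlap between the groups. The gene (ENSMUSG00000026604) spans chromosome 1, 189728268 to 189876695, on the plus strand of GRCm38. Its level was 15.6 CPM at the lowest, 18.2 at the median and 22.1 at the highest among the 6 CD mice. Among the FD mice it was 21.1 in female 1, 20.6 in female 2 and 17.3 in female 3, and 22.8 and 27.0 CPM in males 1 and 2. Both FD males lay above the highest CD mouse, whereas FD female 3, one of the libraries that stood apart, lay below the CD median. Group means were 18.3 ± 2.45 CPM (SD, n = 6) in CD and 21.8 ± 3.53 CPM (SD, n = 5) in FD mice, a log2 difference of 0.24. The labels give mice of both groups the same sex and replicate number in 5 cases, and in all 5 of these pairs the FD mouse had the higher Ptpn14 level, by 0.12 to 0.45 on the log2 scale. CD male 3, the highest CD mouse at 22.1 CPM, has no FD mouse of its sex and number and is in no pair. A fit on the 5 pairs, thus without this mouse, gave a log2 fold change of 0.32. The pairs hold the same values by which Ptpn14 was picked, so they add no support for a diet difference. Without the 3 libraries the log2 fold change was 0.22, with means of 19.6 CPM in 4 CD and 22.9 CPM in 4 FD mice. It was 0.24 in females alone and 0.33 in males alone.

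The promoter windows of Ptpn14 and Wwtr1 are shown because these 2 genes varied together across the mice, as described further on. Each window holds 250 bases before and 50 bases after an annotated RefSeq transcription start (GRCm38.p6). The capitals mark the 6-base core of the sequence that TEAD factors bind, GGAATG, or its reverse complement CATTCC. The Ptpn14 window is chr1:189728018-189728317 on the plus strand, with the word at position -146 from the start. The Wwtr1 window is chr3:57575861-57576160 on the minus strand, with the word at position -136. A second annotated Wwtr1 start lies near the first, and its window holds the same word.
Ptpn14: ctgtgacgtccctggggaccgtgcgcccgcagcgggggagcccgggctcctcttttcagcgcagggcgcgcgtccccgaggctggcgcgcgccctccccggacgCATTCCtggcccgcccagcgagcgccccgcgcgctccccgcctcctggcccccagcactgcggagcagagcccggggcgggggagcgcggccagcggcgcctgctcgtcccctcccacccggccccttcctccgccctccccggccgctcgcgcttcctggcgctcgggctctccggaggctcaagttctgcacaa
Wwtr1: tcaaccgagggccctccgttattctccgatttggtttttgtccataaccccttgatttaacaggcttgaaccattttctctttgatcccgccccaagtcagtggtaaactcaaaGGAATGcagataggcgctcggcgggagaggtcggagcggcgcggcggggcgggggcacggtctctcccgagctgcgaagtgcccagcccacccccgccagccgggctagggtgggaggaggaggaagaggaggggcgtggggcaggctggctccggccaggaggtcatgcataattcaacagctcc

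Of the 9 genes, 8 had a window in the RefSeq table, and the word was present in 5 of them. It stood at position -141 in Yap1, at -65 in Amotl2 and at position 4 in 1 of 2 Lats2 windows, and the windows of Tead2, Lats1 and Wwc1 did not contain it. For comparison, 14.7% of all 32851 windows in the table held the word on either strand. Of the 9690 windows with at least 60% G and C, as 9 of the 10 windows of these genes are, 9.40% held it. These shares are per window, whereas the 5 of 8 is per gene, and Wwtr1 and Lats2 have more than 1 window each. The 60 bases around each word, read along the strand of the gene, are shown for the coactivator gene Yap1 (chr9:8004705-8004764, minus strand) and for the known YAP targets Amotl2 (chr9:102717712-102717771, plus strand) and Lats2 (chr14:57746087-57746146, minus strand). A matching word is a description of the sequence, and binding was not measured.
Yap1: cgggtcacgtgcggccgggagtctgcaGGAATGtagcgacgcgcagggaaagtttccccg
Amotl2: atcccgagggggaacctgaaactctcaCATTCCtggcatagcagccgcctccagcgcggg
Lats2: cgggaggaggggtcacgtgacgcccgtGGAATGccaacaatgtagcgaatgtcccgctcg

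Of the coactivator genes, Wwtr1 was somewhat higher in FD F1 mice and Yap1 lay within the CD range in all FD mice, and neither difference passed the test. Wwtr1, which encodes TAZ, ranged from 17.0 to 20.7 CPM in CD mice with a median of 17.3. In FD mice it measured 21.2 in female 1, 20.1 in female 2, 16.0 in female 3, 20.8 in male 1 and 23.3 CPM in male 2. The Wwtr1 values split at a gap, with 5 mice between 16.0 and 17.5 CPM and 6 mice between 20.1 and 23.3 CPM. The upper set held 4 of the 5 FD mice, and 2 of the 6 CD mice, both male. The log2 fold change was 0.14 (standard error, SE, 0.09), and 0.18 (SE 0.08) without the 3 libraries. Yap1 ranged from 20.1 to 24.8 CPM in CD mice with a median of 23.0. In FD mice Yap1 measured 22.6, 22.2 and 20.9 CPM in females 1 to 3, and 21.8 and 24.0 in males 1 and 2. The log2 fold change of Yap1 was -0.02 (SE 0.07) over 11 mice and -0.05 (SE 0.06) over 8.

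Tead1, which encodes a TEAD factor, was low in 3 libraries and at similar levels on both diets in the other 8. In CD mice it ranged from 11.9 to 23.1 CPM with a median of 21.8. In FD mice it measured 22.7, 22.8 and 17.3 CPM in females 1 to 3, and 23.1 and 20.7 in males 1 and 2. The 3 libraries that stood apart held the 3 lowest values, 11.9, 13.9 and 17.3 CPM, while the other 8 mice lay between 20.7 and 23.1 CPM. The log2 fold change between the diets was 0.15 (SE 0.15) over 11 mice and 0.01 (SE 0.07) over these 8. Tead2 overlapped between the groups, with a CD range of 1.45 to 2.38 CPM and FD values of 2.06, 1.98, 2.32, 1.71 and 2.55 CPM in females 1 to 3 and males 1 and 2. FD male 2 lay above the CD range, and the lowest value of all was that of CD female 2. For Tead2 the log2 fold change was 0.05 (SE 0.15) over 11 mice and 0.03 (SE 0.18) over 8.

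The LATS kinase genes did not differ between the diet groups beyond the spread between mice. Lats1 ranged from 44.4 to 60.2 CPM in CD mice with a median of 56.2. In FD mice it measured 51.2, 59.0 and 45.7 CPM in females 1 to 3, and 55.7 and 60.7 in males 1 and 2. The lowest 3 values again came from the 3 libraries that stood apart, at 45.0 ± 0.633 CPM (SD, n = 3) against 57.3 ± 3.32 CPM (SD, n = 8) in the others. Lats2 ranged from 56.1 to 65.7 CPM in CD mice with a median of 63.7. In FD mice Lats2 measured 63.6, 62.8 and 65.1 CPM in females 1 to 3, and 70.7 and 62.3 in males 1 and 2. The highest Lats2 value of all belonged to an FD male and the lowest to CD female 1, and the other 9 lay within 4 CPM of each other. The log2 fold change was 0.02 (SE 0.09) for Lats1 and 0.05 (SE 0.05) for Lats2 over 11 mice, and -0.04 (SE 0.06) and 0.01 (SE 0.05) over 8.

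The regulators upstream of the kinases and of YAP did not differ between the diets beyond their spread either. Wwc1, whose product KIBRA is also known from studies of memory, ranged from 88.5 to 98.4 CPM in CD mice with a median of 95.0. In FD mice it measured 97.8, 94.8 and 98.2 CPM in females 1 to 3, and 95.2 and 85.5 in males 1 and 2. All FD values but that of male 2 lay within the CD range, and the log2 fold change was -0.0026 (SE 0.05), and 0.02 (SE 0.05) over 8 mice. Amotl2 ranged from 13.5 to 17.5 CPM in CD mice with a median of 15.7. In FD mice Amotl2 measured 19.4, 15.2 and 16.2 CPM in females 1 to 3, and 12.5 and 14.4 in males 1 and 2. The highest and the lowest Amotl2 value were both from FD mice, and the log2 fold change was 0.02 (SE 0.10), and 0.06 (SE 0.12) over 8 mice.

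**Figure D2:**
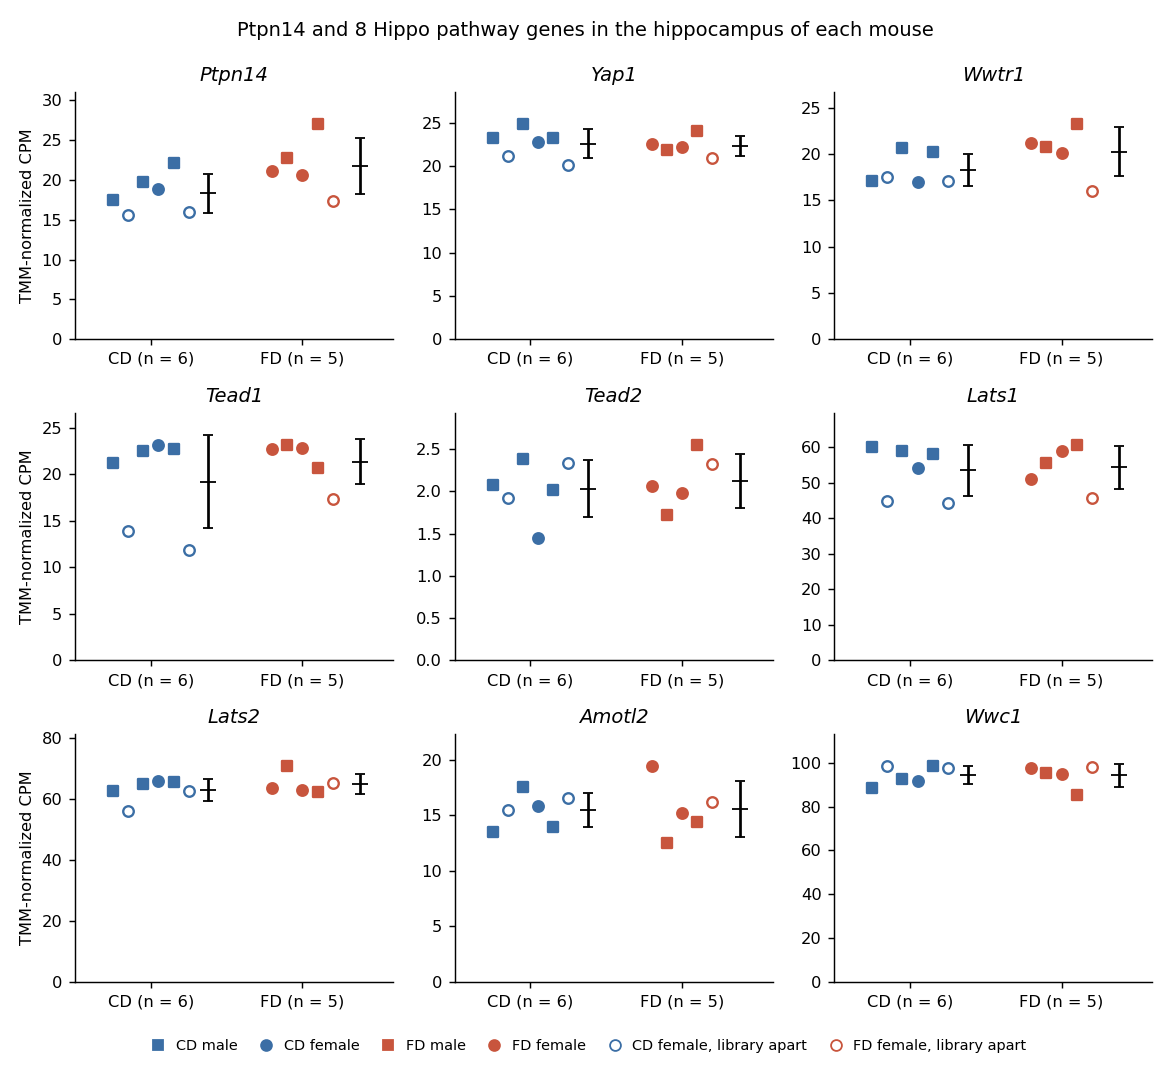
TMM-normalized CPM of the 9 genes in each of 6 CD (blue) and 5 FD (red) F1 mice; squares are males, circles females, open circles the 3 libraries that stood apart, and bars the group mean ± SD. The groups overlap for every gene, and for Tead1 and Lats1 the open circles lie below all other mice.

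Across all genes, 14 of 20589 had an adjusted p-value under 0.1 for FD against CD (quasi-likelihood test of edgeR, Benjamini-Hochberg adjusted), which is 0.0680%. None of the 9 genes was among them, and DESeq2 called 0 of the 9 as well. Nothing is read from this for Ptpn14, since this contrast was used to pick it. Of the 8 genes other than Ptpn14, none had an unadjusted p under 0.05, where 2.59% of all genes had one. Without the 3 libraries, Wwtr1 alone of these 8 had an unadjusted p under 0.05, where 2.77% of all genes had one, and no gene of the 9 passed the adjusted threshold. The fit on pairs called 23 genes instead of 14 and again none of the 9. In that fit the log2 fold change of Tead1 was 0.26 (SE 0.10) and that of Wwtr1 0.18 (SE 0.07). Both had an unadjusted p under 0.05 there, where 6.76% of all genes had one. The FD mouse was higher in 3 of 5 pairs for Tead1 and 4 of 5 for Wwtr1. For Tead1 the log2 difference was 0.71 and 0.54 in females 1 and 3, whose CD mice were libraries that stood apart. It was -0.02, 0.13 and -0.12 in female 2, male 1 and male 2.

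The wider pathway gave no call for the diet. Besides the 9 genes, 70 further genes from 5 lists were tested, and 0 of 70 passed the adjusted threshold in edgeR's quasi-likelihood test or in DESeq2. An unadjusted p under 0.05 was found for 2 of the 70, or 2.86%, and for 1 of 70 with DESeq2. The median log2 fold change was 0.02 over 19 core kinases and their partners, 0.02 over 28 upstream regulators, 0.10 over 9 effectors (YAP, TAZ, TEAD and VGLL genes), 0.05 over 22 YAP and TAZ target genes and 0.12 over 5 phosphatases that share PTPN14's FERM domain, beside -0.004 over all genes tested. Without the 3 libraries these medians were -0.01, 0.03, 0.04, 0.06 and 0.08 in the same order, beside -0.0005 over all genes, so that of the kinases changed sign and that of the effectors was less than 0.5 times as large. The middle effector over 11 mice was Vgll2, named here after its values were seen, with a mean of 0.0970 CPM in CD and 0.0800 CPM in FD mice. Its log2 fold change of 0.10 was thus positive although its mean was lower in FD mice. These levels lie near the counting floor, as 3 counts correspond to 0.0675 to 0.2556 CPM. These lists contain the 9 genes where they belong to them, Ptpn14 included. Foxf2, a transcription factor of brain pericytes, had a log2 fold change of 0.24 (SE 0.11) and CPM of 2.64 to 3.28 in CD and 3.09 to 3.77 in FD mice. Map4k1, an upstream kinase best known from blood cells, ranged from 1.46 to 2.22 CPM in CD and from 1.08 to 1.76 in FD mice, with a log2 fold change of -0.29 (SE 0.16). Both had an adjusted p of 1 in edgeR's quasi-likelihood test.

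The choice of the genes did not use the sexes, so males and females were compared with diet in the model. Lats1 and Ptpn14 were higher in males over all 11 mice. Lats1 measured 60.2, 59.2 and 58.2 CPM in the CD males and 55.7 and 60.7 in the FD males, against 44.4 at the lowest, 48.4 at the median and 59.0 at the highest in 6 females. The log2 fold change of Lats1 was 0.25 (SE 0.07, adjusted p = 0.0758, edgeR's quasi-likelihood test). Ptpn14 measured 17.5, 19.8 and 22.1 CPM in CD males and 22.8 and 27.0 in FD males, against 15.6, 18.1 and 21.1 CPM as the lowest, median and highest of the females. Its log2 fold change was 0.29 (SE 0.08, adjusted p = 0.0804, edgeR's quasi-likelihood test). Both calls were also made by DESeq2. The ranges of the sexes overlapped for both genes.

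In this comparison 6.11% of all genes passed the threshold, and 3.07% of all genes passed and were higher in males, against 2 of the 9 genes. An unadjusted p under 0.05 was found for 5 of the 9 and for 20.3% of all genes. Besides Lats1 and Ptpn14 these were Tead1 with a log2 fold change of 0.30 (SE 0.13) and Wwtr1 with 0.18 (SE 0.08), both higher in males, and Amotl2 with -0.21 (SE 0.09), lower in males. All 3 libraries that stood apart were from females. Without them 13 genes, or 0.0650% of those tested, passed the threshold, and 0 of the 9 did. The log2 fold change was then 0.10 (SE 0.06) for Lats1, 0.18 (SE 0.09) for Ptpn14 and -0.05 (SE 0.07) for Tead1. That of Amotl2 was -0.28 (SE 0.12), the largest of the 9 in these 8 mice and the only one of the 9 with an unadjusted p under 0.05, where 6.54% of all genes had one. Leaving out 1 mouse at a time, 0 of the 9 genes passed without CD male 1, CD female 1, CD male 2, CD male 3, CD female 3, FD female 1, FD male 2 or FD female 3.

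In the wider lists, 6 of 70 genes passed the threshold between the sexes, or 8.57%, and all 6 were higher in males. They were the atypical cadherin genes Fat1 and Fat4, the kinase genes Tnik and Taok1, the TEAD cofactor gene Vgll3 and the tight junction scaffold gene Tjp1. Their log2 fold changes lay between 0.21 and 0.30, with adjusted p-values from 0.0621 to 0.0908 in edgeR's quasi-likelihood test. Fat1, the gene of these with the smallest p, ranged from 52.2 to 63.5 CPM in males and from 40.8 to 54.6 CPM in females, with the 3 libraries that stood apart between 40.8 and 44.6. Tjp1 ranged from 131.5 to 148.3 CPM in males, from 127.7 to 133.8 CPM in the other 3 females and from 102.8 to 108.6 CPM in the 3 libraries. Without these libraries 0 of 70 genes passed, and 4 of 70, or 5.71%, had an unadjusted p under 0.05, against 6.54% of all genes. The count over 11 mice fell to 0 without CD male 1, CD female 1, CD male 2, CD female 3, FD male 2 or FD female 3, to 1 without CD male 3 or FD female 1 and to 2 without FD male 1, and rose to 13 without CD female 2 or FD female 2.

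**Figure D3:**
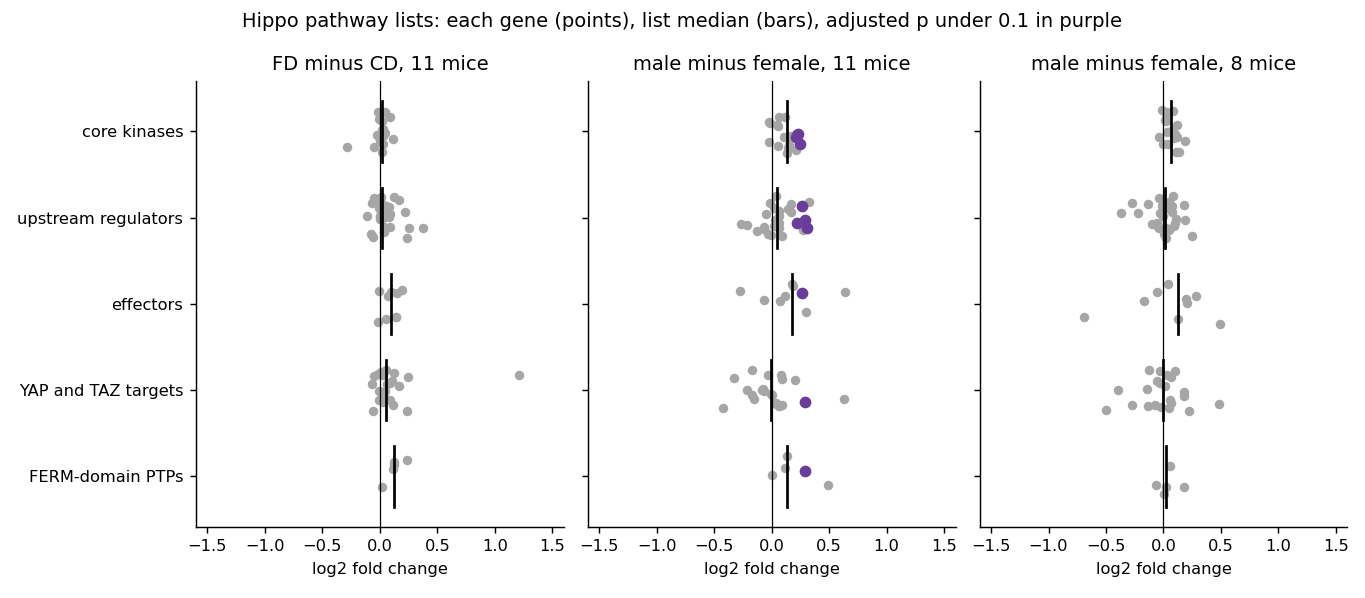
Log2 fold changes of the genes of 5 pathway lists (points) for FD minus CD and for male minus female in 11 mice and in the 8 mice without the libraries that stood apart; black bars are list medians and purple points have an adjusted p under 0.1. Purple points are present only for the sexes over 11 mice, where all lie to the right of 0.

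Whether the diet difference depended on sex was tested with an interaction term. It called 0 of 20589 genes, or 0%, in edgeR's quasi-likelihood test, with an unadjusted p under 0.05 for 1.90% of all genes and for 0 of the 9, and DESeq2 called 0 genes. The smallest unadjusted p among the 9 genes belonged to Tead1, with an interaction of -0.40 on the log2 scale (SE 0.25), and without the 3 libraries its value was 0.02 (SE 0.15).

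The levels of the Hippo genes were next related to Ptpn14 across the mice, on log2 CPM. Wwtr1 followed Ptpn14 most closely. Over 11 mice Pearson's r was 0.880 (permutation test, p = 0.00051, adjusted p = 0.0609 over the 14436 genes averaging 1 CPM or more), and Spearman's rho was 0.800 (permutation test, p = 0.00479, adjusted p = 0.1335). Wwtr1 held place 32 in the order of r among the 14436 genes. For the relation of all genes to Ptpn14, 14.0% passed the adjusted threshold, 5.23% did so with a positive r, and 12.2% had an r of at least 0.6. Of the 8 genes, 1 passed, and 4 had an r of at least 0.6. The 5 mice below the gap in Wwtr1 had Ptpn14 levels of 15.6 to 18.9 CPM, and the 6 mice above it had levels of 19.8 to 27.0 CPM, with no overlap.

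The r of Wwtr1 with Ptpn14 lay between 0.750 and 0.904 in the subsets of mice examined, and was lower between paired mice. Without the 2 mice farthest from the Ptpn14 median (FD male 2 and CD female 1) r was 0.855 (exact permutation test, p = 0.00602). In the 8 mice without the libraries that stood apart it was 0.873 (exact permutation test, p = 0.00484, adjusted p = 0.931). In that subset 4.29% of all genes had an r of at least 0.6, and 0 genes passed the adjusted threshold. It was 0.756 in the 6 females and 0.750 in the 6 CD mice (exact permutation tests, p = 0.0917 and 0.136), and 0.746 after diet and sex had been removed from both genes. In the 6 mice above the gap r was 0.846 (exact permutation test, p = 0.144). Without FD male 2, the mouse highest in both genes, it was 0.818 in the 7 remaining of the 8 mice (exact permutation test, p = 0.0452), which lay on both sides of the gap. Above the gap without FD male 2, Wwtr1 in order of rising Ptpn14 was 20.7, 20.1, 21.2, 20.3 and 20.8 CPM. Below the gap it was 17.5, 17.1, 16.0, 17.2 and 17.0 CPM in that order. Neither set rose steadily, and r was not computed in them. Over the FD minus CD differences of the 5 pairs (the replicate block) r was 0.5575, from too few pairs for a test. Leaving out CD female 1, CD female 3 or FD female 3 in turn moved the adjusted p over 0.1, to 0.205, 0.147 and 0.112 in permutation tests, while r stayed between 0.824 and 0.904 for any single mouse left out.

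For Lats1, Tead1 and Yap1 the relation rested on the 3 libraries that stood apart. Over 11 mice Lats1 had an r of 0.701 (permutation test, p = 0.0172, adjusted p = 0.107), Tead1 of 0.685 (p = 0.0192, adjusted p = 0.112) and Yap1 of 0.611 (p = 0.0463, adjusted p = 0.163). Their Spearman's rho values were 0.618, 0.618 and 0.564 (permutation test, p = 0.0482, 0.0474 and 0.0767). None of the 3 passed the adjusted threshold. Without the 2 mice farthest from the Ptpn14 median r was 0.569, 0.783 and 0.453. In the 8 mice without the 3 libraries r was 0.119 for Lats1, -0.256 for Tead1 and 0.0698 for Yap1 (exact permutation tests, p = 0.770, 0.526 and 0.869). Lats2 (r = 0.459), Tead2 (0.0984), Amotl2 (-0.278) and Wwc1 (-0.451) did not pass the test over 11 mice (permutation test, adjusted p from 0.310 to 0.863), with rho of 0.355, 0.0364, -0.373 and -0.264.

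**Figure D4:**
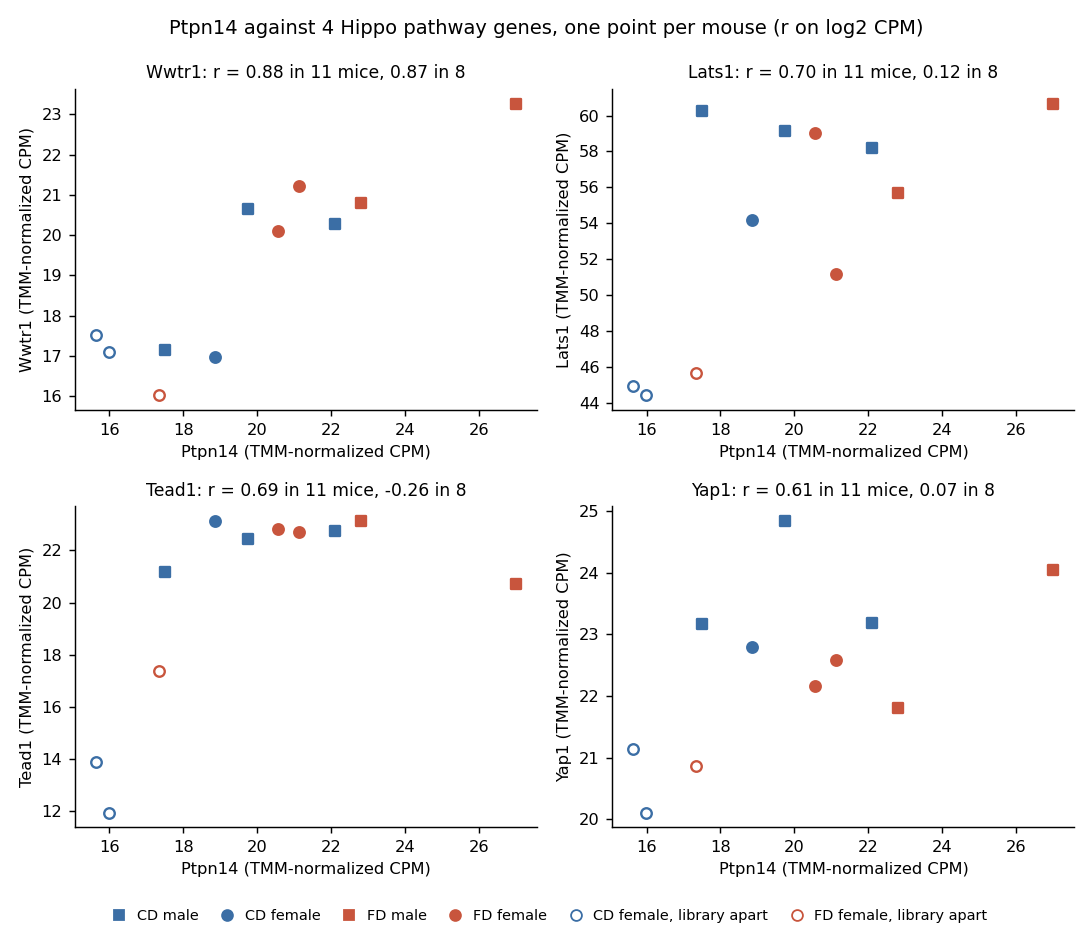
Ptpn14 against Wwtr1, Lats1, Tead1 and Yap1 in TMM-normalized CPM, one point per mouse; blue is CD, red FD, squares males, circles females and open circles the 3 libraries that stood apart. Wwtr1 rises with Ptpn14 over all points (r = 0.88 in 11 mice) and over the filled points (r = 0.87 in 8 mice). Among the 3 open points alone, Wwtr1 is lower where Ptpn14 is higher. For Tead1 the filled points alone show no such rise (r = -0.26 in 8 mice).

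**Figure D5:**
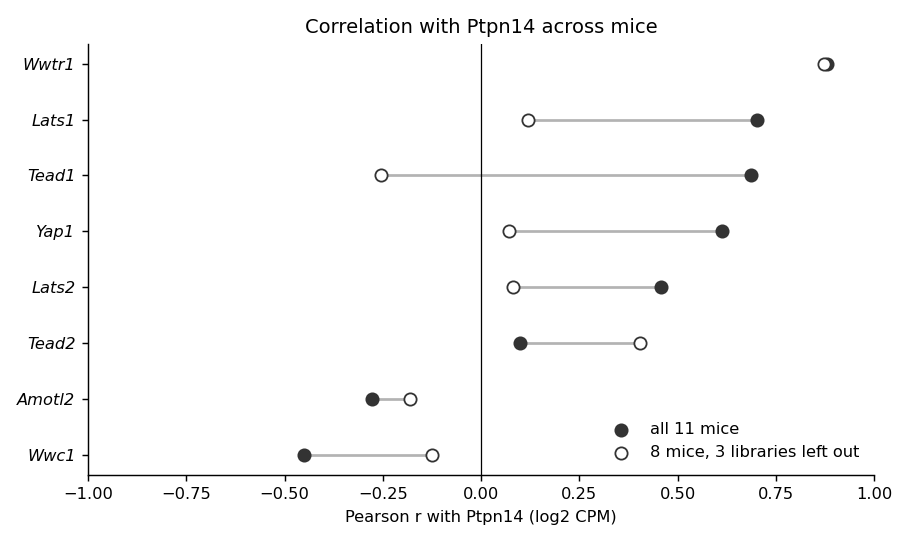
Pearson's r of each of 8 Hippo pathway genes with Ptpn14 on log2 CPM, over all 11 mice (filled) and over the 8 mice without the libraries that stood apart (open). The 2 values nearly coincide for Wwtr1 and lie far apart for Lats1, Tead1 and Yap1.

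Markers of vessel cells and meninges were among the genes with a high r with Ptpn14 over the 11 mice, and fewer of them were in the 8 mice. An r of at least 0.6 with Ptpn14 was reached by 4 of 10 endothelial, 5 of 10 mural, 3 of 10 meningeal fibroblast and 1 of 10 astrocyte markers, against 12.2% of all genes, and none of these 40 markers was at 0 in a mouse. In the 8 mice without the libraries that stood apart the counts were 1 endothelial, 1 mural, 2 meningeal fibroblast and 1 astrocyte marker of 10 each, against 4.29% of all genes. The summed endothelial markers lay between 208.1 and 279.5 CPM in CD and between 220.7 and 282.9 CPM in FD mice, and the summed mural markers between 203.7 and 270.9 CPM in CD and between 189.3 and 320.3 CPM in FD mice. The summed meningeal markers ranged from 155.5 to 300.8 CPM in CD and from 194.6 to 455.7 CPM in FD mice, and the summed astrocyte markers from 4930 to 5627 and from 5305 to 5685 CPM. In the 3 libraries that stood apart, the endothelial sum was 208.1 to 235.6 CPM and the mural sum 189.3 to 212.6 CPM. Of 9 pan-neuronal markers, 5 had an r of -0.6 or lower with Ptpn14, as had 17.8% of all genes, and 2 an r of at least 0.6. In the 8 mice 1 of the 9 had an r of -0.6 or lower and 0 an r of at least 0.6. The part of these cell types in the relations with Ptpn14 was not tested beyond removing the endothelial, astrocyte and mural sums. The meningeal and pan-neuronal sums were not removed. Over 11 and 8 mice the r of the meningeal sum was 0.633 and 0.666 with Ptpn14, and 0.671 and 0.616 with Wwtr1. That of the pan-neuronal sum was -0.6495 and -0.519 with Ptpn14, and -0.8234 and -0.7083 with Wwtr1. After the summed endothelial and astrocyte markers had been removed from both genes, r between Wwtr1 and Ptpn14 was 0.650 (permutation test, p = 0.0299, adjusted p = 0.495), and after the summed mural markers had been removed it was 0.759 (permutation test, p = 0.00578, adjusted p = 0.405). With the endothelial and astrocyte sums removed, r was 0.244 for Lats1, -0.0139 for Tead1, -0.159 for Yap1 and -0.677 for Amotl2 (permutation test for Amotl2, p = 0.0201, adjusted p = 0.479). With the mural sum removed, r was 0.469 for Lats1, 0.529 for Tead1, 0.184 for Yap1, -0.588 for Amotl2 and 0.683 for Lats2 (permutation test for Lats2, p = 0.0196, adjusted p = 0.413), and 0 of the 8 genes passed the adjusted threshold in either case.

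The genes whose pattern was most like that of Ptpn14 lay outside the Hippo pathway lists. Among the 14436 genes, the highest r over 11 mice belonged to Fxyd5 (0.970), which encodes a regulator of the sodium pump, Rnf213 (0.927), an E3 ubiquitin ligase gene, Sntg1 (0.918), a syntrophin gene, Mtmr11 (0.916), a myotubularin-related gene, and Slco1c1 (0.915), a thyroid hormone transporter of the blood-brain barrier and astrocytes. Each had an adjusted p of 0.0544 (permutation test). In the 8 mice without the libraries that stood apart, r of these 5 genes with Ptpn14 was 0.939, 0.887, 0.863, 0.826 and 0.867 in the same order.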

How the data were processed

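Hippocampal RNA of 11 F1 mice was sequenced as 50 bp single-end reads. The authors trimmed the reads, aligned them to mm10 (GRCm38) with STAR 2.4.0 and deposited raw counts of uniquely aligned reads per Ensembl gene for each mouse. The methods name featureCounts, the 5 summary lines in the tables are of another counter's form, and the annotation release and strand setting are not given in the sources used here. Reads with several places are missing from the counts. The summary lines held 24.4% to 26.9% of the reads and were left out of library sizes. Replicates are separate mice. Dams and litters are not given in the labels.

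The 20589 genes reaching 10 counts in the sum of the 11 mice were fitted in R 4.3.3 with edgeR 4.0.16 (TMM, quasi-likelihood test, Benjamini-Hochberg adjustment over all genes, threshold 0.1). FD was compared with CD without covariates, as the study's methods name none, the sexes with diet in the model, and the interaction with both. The SE of a log2 fold change is its absolute value divided by the square root of the test's F statistic. It therefore restates that test, and none is given for Ptpn14 between the diets. Symbols and union exon lengths came from GENCODE release M21, and 80 of 82 list genes matched. For correlations, log2 CPM with a prior count of 2 and permutation tests with 100000 resamples were used (exact below 10 mice). The p-values were adjusted over all genes, although the design named the 8 genes. Total counts of 11737554 to 44447006 mean that 3 counts correspond to 0.0675 to 0.2556 CPM before scaling. Scripts were tested on simulated data. Python 3.11.15, pandas 2.3.3 and matplotlib 3.10.9 were used.

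The genes, lists and tests were chosen with earlier results of these data known. Named genes were the 9 genes, list genes past a threshold, otherwise the 3 list genes with the smallest p for the diet or the sexes, and the 5 genes with the highest r with Ptpn14. One list gene that this rule names is not reported here. Alternatives were DESeq2 1.42.0, its size factors (RLE), no filter or filterByExpr, each mouse left out, sex as a covariate, each sex alone and the replicate block. The 8 mice without the libraries that stood apart, the removal of mural markers, the mice above the gap in Wwtr1 and the omission of FD male 2 were added after seeing the data. The replicate block pairs mice with the same sex and number and leaves out CD male 3, which has no FD partner. Deviations from the group mean correlated within the 5 pairs with r of 0.307 to 0.540, and with 0.0051 to 0.386 after sex had been removed.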

Additional observations from a re-analysis of the deposited data

Results flagged for a closer look

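Lats2 in CD female 1 and Wwc1 in FD male 2 lay far from the other mice of their group. Lats2 measured 56.1 CPM in CD female 1 against 62.5 to 65.7 CPM in the other CD mice, and this library is one of the 3 that stood apart. Wwc1 measured 85.5 CPM in FD male 2 against 94.8 to 98.2 CPM in the other FD mice. Both gaps exceeded Dixon's critical value, which chance alone exceeds in about 1 in 20 groups, and 18 groups of 5 or 6 mice were examined for the 9 genes.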

How the results depend on the processing

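For FD against CD and for the interaction, 0 of the 9 genes passed in each alternative run, and for the diet 0 of the 70 list genes. None of the 180 alternative values of the 9 log2 fold changes for the diet moved beyond the spread between mice. That limit was wide and took no account of sign, so it cannot show that the values were stable. Tead1, at 0.15 over all mice, counted as unmoved at 0.39 in females alone and at 0.01 in males alone. Amotl2, at 0.02 over all mice, counted as unmoved at -0.13 in males alone. With the replicate block, in which mice are paired by sex and number, 0 of the 9 and 0 of the 70 passed, the log2 fold change of Ptpn14 was 0.32, and no call on these genes changed. Between the sexes, 2 of the 9 genes passed, 4 without a count filter, 0 without the 3 libraries that stood apart and 0 to 3 when 1 mouse was left out. Of the list genes 6 passed, 12 with DESeq2, 12 without a count filter, 0 without the 3 libraries and 0 to 13 when 1 mouse was left out. For the correlation with Ptpn14, 1 of 8 genes passed, 2 with RLE size factors, and 0 with Spearman's rho, without the 2 farthest mice, in females, in CD mice, with diet and sex removed, with endothelial and astrocyte or mural markers removed, or without the 3 libraries, and 0 to 3 when 1 mouse was left out. Fewer mice enter in several of these, and for the others the cause was not tested. Counting error is largest for Tead2, with 17 to 89 counts per mouse.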
